A study of Arabidopsis thaliana with 8 samples.

Results

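The trihelix proteins are transcription factors found in plants, named after a DNA-binding domain of tandem helices that contacts GT elements, short motifs first described in promoters of light-regulated genes. Members have been linked to light responses, trichome and stomatal development, seed shattering and stress tolerance. HRA1 (HYPOXIA RESPONSE ATTENUATOR 1, AT3G10040) is a nuclear member of the family that binds RAP2.12, a group VII ethylene response factor (ERF-VII) that activates anaerobic genes when oxygen is scarce, and dampens its activity. The question for the arrays was how the genes of this family, HRA1 among them, were expressed under hypoxia and in plants that overexpress HRA1.

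The genes were listed by locus code, and 8 of the 10 listed could be assigned a single probe set among the 22634 tested. These were HRA1 (258930_at), AT1G31310 (262550_at, also called SH4-like2), GT2L (AT5G28300, 245861_at), GTL1 (AT1G33240, 261594_at), GT2 (AT1G76890, 256332_at), AT1G76880 (256331_at), GT-1 (AT1G13450, 259412_at) and AT3G25990 (258068_at). AT5G47660 and EDA31 (AT3G10000) were not analysed here. The probe sets of GT2L and GTL1 were identified through the table of responsive genes that the study drew from these same arrays. That table holds genes that passed the study's thresholds in some comparison, so that their being measured depended on their response. The other 6 came from the annotation of the platform. A further 13 of 19 other genes listed as trihelix members had a single probe set and are described as a group.

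Seedlings aged 7 d were grown on plates with sucrose. Col-0 is the wild type, and OE-HRA1 plants carry, in the same background and with the native gene intact, HRA1 fused to a FLAG epitope and driven by the strong constitutive promoter of Cauliflower Mosaic Virus. Each genotype was treated for 2 h in argon under dim light (hypoxia) or in chambers open to air (non-stress), and total RNA of whole seedlings was hybridised to ATH1 arrays, with 2 arrays for each of the 4 groups. Labels number the Col-0 arrays as replicates of the experiment, and the OE-HRA1 arrays are of lines #1 and #2, each measured once per treatment, so that the OE-HRA1 spread holds any difference between lines. The Col-0 hypoxia arrays carry a source label with the non-stress treatment, but their titles and treatment fields say hypoxia, which was followed here. Correlations within groups were 0.994 to 0.997. Of the tissue markers, 3 of 4 listed root genes were measured, at a mean of 8.36 to 10.07 log2 units over the arrays, and none of 3 listed shoot genes had an assigned probe set. In whole seedlings, fewer cells of a type and less RNA per cell cannot be told apart.

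The cloning primers that the methods name for the construct of lines #1 and #2 are shown because they set which part of HRA1 the transgene carries. The first 24 of the 31 bases of the forward primer are given, with the start codon in capitals. The reverse primer ends the insert at the last codon without a stop, as a C-terminal fusion needs. Both are for HRA1, on chromosome 3.
HRA1 forward: caccATGgaatcgaatgtgatgtt
HRA1 reverse without stop: ccccttagcggaactcgggtcaac
The transgene thus holds the coding sequence from end to end but not the native sequence beyond the stop codon. The positions of the individual probes of the HRA1 probe set were not used here. The array signal in OE-HRA1 in air, described next, was far above that of Col-0. All HRA1 values in OE-HRA1 are taken as the sum of transgene and native gene, in proportions that the arrays do not give. By RT-qPCR, the study reported strong down-regulation of the native transcript in OE-HRA1 seedlings.

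HRA1 was the most responsive of the trihelix genes measured. The Col-0 arrays gave 7.20 and 7.00 log2 units for non-stress and 11.74 and 12.10 for hypoxia. Line #1 of OE-HRA1 gave 12.98 in air and 12.19 under hypoxia, and line #2 gave 13.09 and 12.02. Only the Col-0 non-stress arrays were low. OE-HRA1 in air stood above every other group, and the hypoxia arrays of the genotypes overlapped. The signal log2 ratio (SLR, the difference between group means on the log2 scale) of hypoxia against non-stress in Col-0 was 4.82 (SE 0.13, adjusted p = 3.75e-07, n = 2 per group), a 28.3-fold increase that ranked 13th in size among the 458 probe sets called higher. In OE-HRA1 the summed transcript was lower under hypoxia than in air, a 1.91-fold difference (SLR −0.93, SE 0.13, 95% interval −1.24 to −0.63, adjusted p = 0.00214), a change just short of the SLR threshold of 1 used for calls. The decrease was seen in both lines, at −0.79 in line #1 and −1.07 in line #2.

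The genotypes thus differed in HRA1 by a very large margin in air, and under hypoxia by an amount not resolved on the arrays. In air the SLR of OE-HRA1 over Col-0 was 5.94 (SE 0.13, adjusted p = 1.11e-06, 61.3-fold), the largest of the 9 increases called. After 2 h of hypoxia it was 0.18, with a 95% interval of −0.12 to 0.49 (adjusted p = 0.436). The interval is for array signal only, and whether the signal flattens at such high values was not tested. By RT-qPCR, the study reported more total HRA1 transcript in both OE-HRA1 lines than in the wild type under hypoxia. The difference between the hypoxia responses, tested as the interaction of genotype and treatment, was −5.75 (SE 0.19, adjusted p = 2.38e-05). It was the most negative of the 37 negative interactions called. The constitutive transgene raises HRA1 in air by design, so the excess in air and a negative interaction were fixed by the construct. These values do not show how the total was divided between the native gene and the transgene.

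**Figure D1:**
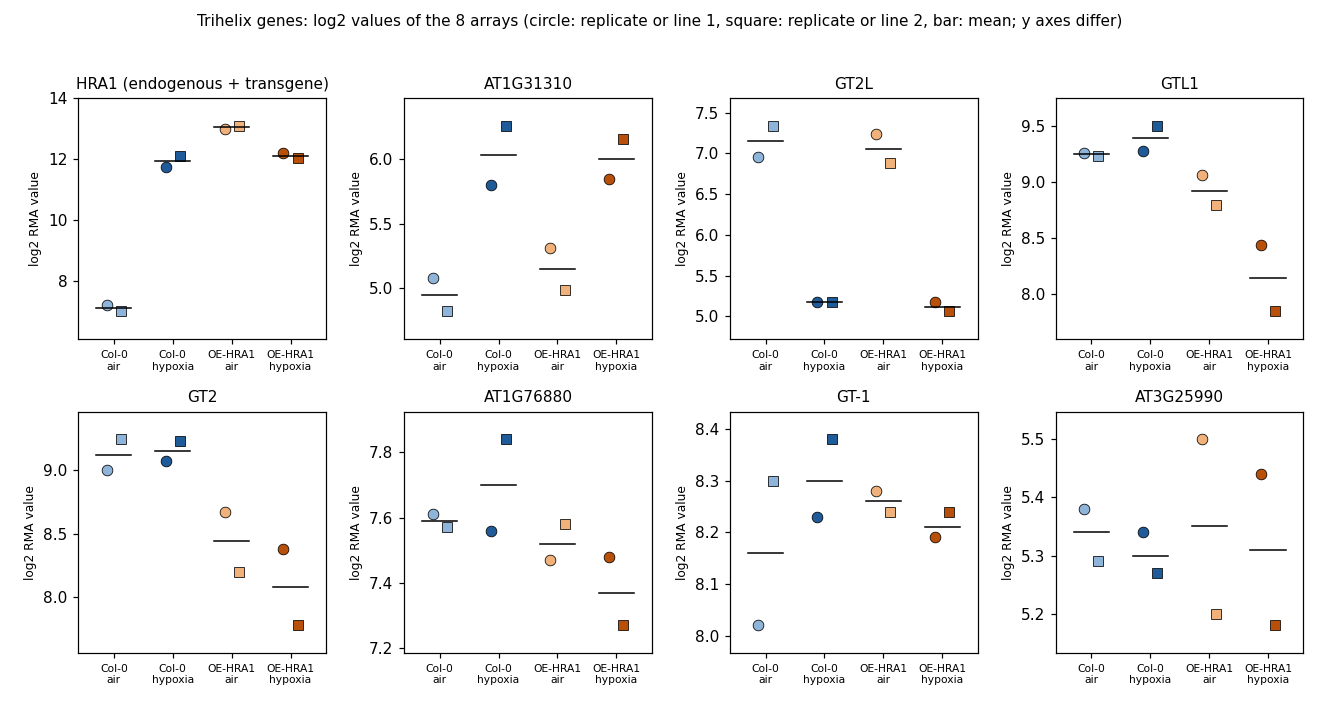
Log2 values from the robust multi-array average (RMA) for the 8 trihelix genes (y axis, scaled for each gene) on the 8 arrays, by group (x axis); circles are replicate or line 1, squares replicate or line 2 and bars group means. HRA1 is low only in Col-0 non-stress arrays, GT2L is at 5.06 to 5.18 on all 4 hypoxia arrays, and GTL1 and GT2 are lower on the OE-HRA1 arrays than on those of Col-0.

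Hypoxia in Col-0 changed 3 of the 8 trihelix genes. A gene was called when its |SLR| exceeded 1 and its adjusted p was under 0.01, the thresholds of the study, and 2.86% of all tested probe sets met these in Col-0 (2.02% higher and 0.835% lower). HRA1 and AT1G31310 rose, GT2L fell, and GTL1, GT2, AT1G76880, GT-1 and AT3G25990 were not called, with SLR of −0.03 to 0.14. GT2L was among the 8 only through the study's table of responsive genes, so 3 of 8 cannot be set fairly against these shares. The median SLR was 0.12 over the 8 genes and −0.01 over all tested probe sets.

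GT2L, a GT-2-like protein known to bind calmodulin, was lowered by hypoxia in both genotypes. The non-stress values were 6.95 and 7.34 for Col-0 and 7.24 and 6.88 for OE-HRA1, and the hypoxia values were 5.17 and 5.18 for Col-0 and 5.18 and 5.06 for OE-HRA1. All 4 hypoxia arrays were below all 4 non-stress arrays. Within a genotype, the hypoxia arrays were below the non-stress arrays for 29.8% of all probe sets in Col-0 and 31.1% in OE-HRA1. Of the 4 hypoxia values of GT2L, 3 lay under the lower quartile of their own array. That quartile was 5.15 to 5.24 for the 8 arrays. The decrease in Col-0 was 3.93-fold (SLR −1.98, SE 0.15, adjusted p = 0.000103). In OE-HRA1 it was 3.84-fold (SLR −1.94, SE 0.15, adjusted p = 0.00012). With the hypoxia values at the dim end of the arrays, these folds may understate the decrease. The responses differed by 0.04, with a 95% interval of −0.46 to 0.53, which does not show that the decreases were alike since both genotypes ended at that dim level. GT2L was the only one of the 8 called in OE-HRA1, where 3.07% of all probe sets were called (1.95% higher and 1.12% lower). It was included through the study's table of responsive genes, so its calls are not independent of that inclusion. Root marker transcripts were lower on the same arrays. The 3 measured, all of class III peroxidases, averaged 9.57 to 10.07 log2 units on the non-stress arrays and 8.36 to 8.60 under hypoxia, and their part in the value of GT2L was not tested.

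AT1G31310, related by its name to the seed shattering factor SH4 of rice, was the only trihelix gene other than HRA1 called higher under hypoxia, and the call was marginal. Its values in air were 5.08 and 4.82 for Col-0 and 5.31 and 4.99 for OE-HRA1, and those under hypoxia were 5.80 and 6.26 for Col-0 and 5.85 and 6.16 for OE-HRA1. All hypoxia arrays exceeded all non-stress arrays, 3 of which lay under the lower quartile of their array. Within a genotype, the hypoxia arrays exceeded the non-stress arrays for 24% of all probe sets in Col-0 and 32% in OE-HRA1. The SLR was 1.08 in Col-0 (SE 0.18, 95% interval 0.66 to 1.5, adjusted p = 0.00535, 2.11-fold), close to the threshold, at rank 417 of the 458 increases. In OE-HRA1 it was 0.86 (SE 0.18, adjusted p = 0.0137) and not called, but the difference between the genotypes, −0.22 (95% interval −0.82 to 0.38, adjusted p = 0.965), was not resolved. The Col-0 call was lost when any of 5 arrays was left out (Col-0 non-stress 1 or 2, Col-0 hypoxia 2, or either OE-HRA1 hypoxia array), with SLR of 0.85 to 1.21. It was also lost with the transgenic line as a block (adjusted p = 0.0117) and with only the compared groups in the fit (adjusted p = 0.0213). From a survey of public data, the study reported that HRA1 alone of the trihelix genes rose when oxygen was low. Its ChIP-seq listed AT1G31310 as a putative HRA1 target. Between genotypes the SLR of AT1G31310 was −0.03 under hypoxia and 0.2 in air, neither of them called.

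**Figure D2:**
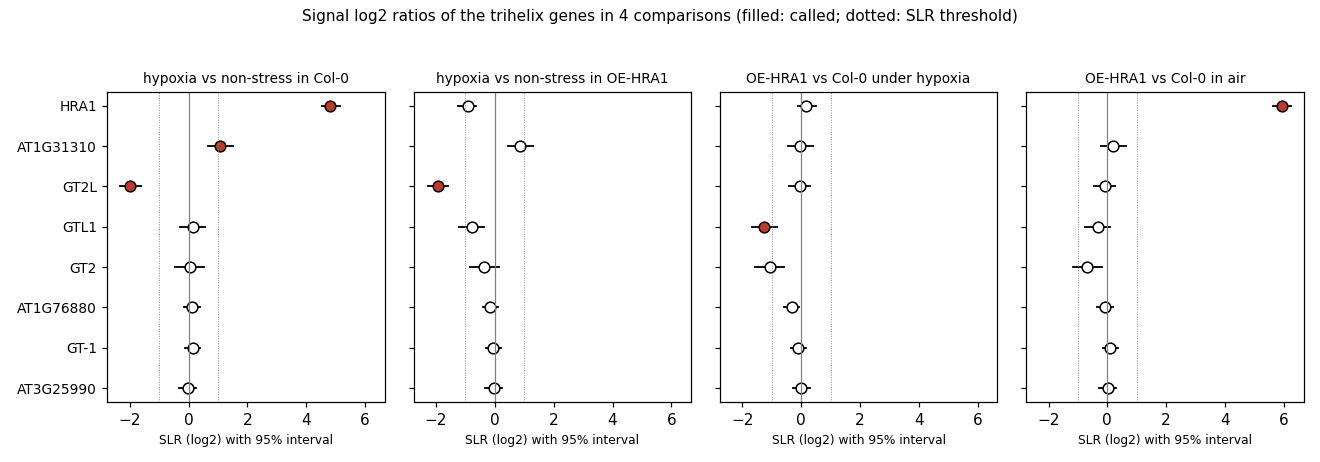
SLR of the 8 trihelix genes (x axis, log2, points with 95% intervals) in each of 4 comparisons between groups of 2 arrays; filled points were called and dotted lines mark an |SLR| of 1. Calls were HRA1, AT1G31310 and GT2L for hypoxia in Col-0, GT2L in OE-HRA1, GTL1 between genotypes under hypoxia and HRA1 between genotypes in air.

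Overexpression of HRA1 was accompanied by lower GTL1 under hypoxia. GTL1 (GT-2-LIKE 1) represses growth of trichome cells and affects water loss through its effect on stomatal number. It read 9.26 and 9.23 in Col-0 in air, 9.27 and 9.5 in Col-0 under hypoxia, 9.06 and 8.79 in OE-HRA1 in air and 8.43 and 7.84 under hypoxia. The OE-HRA1 hypoxia arrays were the lowest of the 8, and the OE-HRA1 arrays in air lay between them and those of Col-0. Under hypoxia the level was 2.38-fold lower in OE-HRA1 (SLR −1.25, SE 0.19, 95% interval −1.68 to −0.82, adjusted p = 0.00766), the 87th largest of 142 decreases. GTL1 was the only one of the 8 called in this comparison, where 0.937% of all probe sets were called (0.309% higher and 0.627% lower). It was included through the study's table of responsive genes, so its call is not independent of that inclusion. In air the SLR was −0.32 (SE 0.19, adjusted p = 0.494), and 0.11% of all probe sets were called (0.0398% higher and 0.0707% lower).

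Within each line GTL1 read lower under hypoxia than in air, with a difference of −0.63 in line #1 and of −0.95 in line #2, whereas the Col-0 pairs of equal replicate number differed by 0.01 and 0.27. The response in OE-HRA1 was −0.79 (SE 0.19, adjusted p = 0.0198) and was not called. The interaction of −0.93 (SE 0.26, adjusted p = 0.487) was not called either, a comparison in which 0.168% of probe sets were called (0.00442% higher and 0.163% lower). The genotype call under hypoxia was lost when any array other than that of line #1 under hypoxia was left out, with SLR of −0.96 to −1.37 and adjusted p of 0.0136 to 0.0342. Without line #1 under hypoxia it was kept, at −1.55 (adjusted p = 0.00607), and without line #2 the SLR was −0.96.

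GT2, which like GTL1 carries a pair of trihelix domains and binds GT boxes, read lower in OE-HRA1 in both treatments but was not called. Its values were 9.0 and 9.24 in Col-0 in air, 9.07 and 9.23 in Col-0 under hypoxia, 8.67 and 8.20 in OE-HRA1 in air and 8.38 and 7.78 under hypoxia. All 4 OE-HRA1 arrays were below all 4 Col-0 arrays. The share of probe sets with such a split over both treatments was not computed. Within a treatment, the OE-HRA1 arrays were below those of Col-0 for 23.9% of all probe sets under hypoxia and 22.9% in air. The SLR between genotypes was −1.07 under hypoxia (SE 0.21, 95% interval −1.56 to −0.58, adjusted p = 0.024) and −0.68 in air (SE 0.21, adjusted p = 0.188). When the transgenic line was added as a block, the hypoxia difference was called (adjusted p = 0.00389), but that fit takes the spread between the lines out of the error and so refers to the mean of these lines only. Neither response to hypoxia was called, with an SLR of 0.03 in Col-0 (95% interval −0.46 to 0.52) and −0.36 in OE-HRA1 (adjusted p = 0.294), and the interaction was −0.39 (adjusted p = 0.946).

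For both genes, line #2 read lower than line #1 in each treatment. Line #2 minus line #1 was −0.47 in air and −0.60 under hypoxia for GT2, and −0.27 and −0.59 for GTL1. Under hypoxia a difference between the lines of that size was found for 0.74% of all probe sets in the case of GT2 and 0.79% for GTL1, and in air for 1.71% and 8.12%. HRA1 itself differed between the lines by 0.11 in air and −0.16 under hypoxia, amounts reached by 41.12% and 28.68% of probe sets. The Col-0 arrays of a group (replicate 2 minus replicate 1) differed by 0.24 in air and 0.16 under hypoxia for GT2, and by −0.03 and 0.23 for GTL1. With 1 array per line and treatment, a difference between lines cannot be told apart from the spread between arrays.

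GT2 is the last of 3 trihelix genes that follow each other on chromosome 1, AT1G76870, AT1G76880 and GT2, with no protein-coding gene between neighbours in the annotation. AT1G76880 read 7.61 and 7.57 in Col-0 in air, 7.56 and 7.84 under hypoxia, 7.47 and 7.58 in OE-HRA1 in air and 7.48 and 7.27 under hypoxia, with an SLR between genotypes under hypoxia of −0.32 (95% interval −0.59 to −0.06, adjusted p = 0.133). AT1G76870 was a dim probe set, at 4.86 to 5.52, with an SLR of −0.26 (adjusted p = 0.189). In air the SLR between genotypes were −0.07 for AT1G76880, −0.17 for AT1G76870 and −0.68 for GT2. The OE-HRA1 hypoxia arrays were below the Col-0 hypoxia arrays for all 3 genes, as they were for 23.9% of all probe sets. HRA1 likewise lies next to another gene listed as trihelix, AT3G10030, which in Col-0 differed by 0.06 (95% interval −0.13 to 0.25) while HRA1 rose 28.3-fold.

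**Figure D3:**
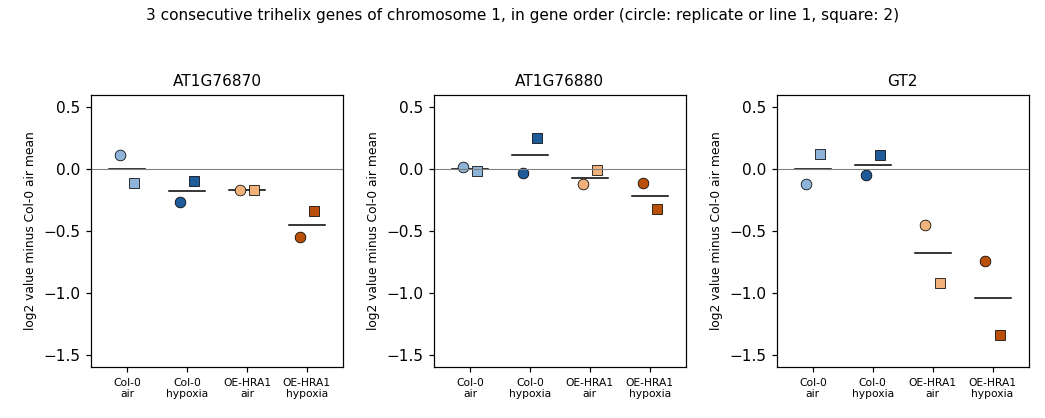
Log2 values of 3 consecutive trihelix genes of chromosome 1, each minus the mean of its Col-0 non-stress arrays (y axis, shared scale), by group (x axis); circles are replicate or line 1, squares 2 and bars group means. GT2 is lower on all 4 OE-HRA1 arrays, with means at −0.68 in air and −1.04 under hypoxia, whereas AT1G76870 and AT1G76880 lie between −0.55 and 0.25 on every array.

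GT-1, the factor for which GT-1 boxes of light-regulated promoters are named, and AT3G25990 were not called in any comparison. GT-1 read 8.02 to 8.38 over the 8 arrays, with SLR of −0.09 to 0.14 in the 4 comparisons between groups and 95% intervals within −0.34 and 0.39. AT3G25990 read 5.18 to 5.5, with SLR of −0.04 to 0.02 and intervals within −0.33 and 0.3. Its lowest values in each treatment were those of line #2, and 2 of its arrays lay below their lower quartile.

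Of the 13 other trihelix genes, none was called in any of the comparisons, with a range of 4.03 to 8.60 log2 units over the arrays. In Col-0 their SLR for hypoxia ran from −0.49 to 0.53 with a median of 0.05, and 4 of 13 had an unadjusted p under 0.05, against 29.0% of all probe sets. Of these, AT3G54390 (SLR 0.53, adjusted p = 0.026), AT5G05550 (SLR 0.35, adjusted p = 0.0696) and AT2G38250 (SLR 0.23, adjusted p = 0.113) were higher on both Col-0 hypoxia arrays than on the non-stress arrays. So were 24% of all probe sets. AT3G24490 (SLR −0.49, adjusted p = 0.0436) was lower on both, as were 29.8% of all probe sets. In OE-HRA1 the median was −0.16 and 8 of 13 were under 0.05, against 33.3%. Between genotypes under hypoxia the median was −0.26, against 0.03 for all probe sets, 10 of 13 were below 0, against 44.2%, and 9 of 13 were under 0.05, against 24.5%. In air the median was −0.08, 7 of 13 were below 0, against 47.1%, and 2 of 13 were under 0.05, against 14.6%. Not all of these probe sets were bright, and 2 of the 13 (AT5G01380 and AT2G38250) lay under the lower quartile on every array.

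The genes of this group with the largest SLR in any comparison were AT2G44730, AT3G54390, AT3G24490 and AT1G21200. AT2G44730 read 7.75 and 7.60 in Col-0 under hypoxia and 7.06 and 7.07 in OE-HRA1, an SLR of −0.61 (SE 0.09, adjusted p = 0.00899) that passed the test but not the SLR threshold. Its response in OE-HRA1 was −0.68 (adjusted p = 0.00188), against −0.16 (adjusted p = 0.334) in Col-0, and the difference between these, −0.52, was not called (adjusted p = 0.365). AT3G54390 read 6.56 and 6.80 in Col-0 under hypoxia and 6.05 and 6.0 in OE-HRA1 (SLR −0.65, adjusted p = 0.0231). The SLR of AT1G21200 between genotypes under hypoxia was −0.58 (adjusted p = 0.102) and that of AT3G24490 was −0.45 (adjusted p = 0.0884). AT3G58630, singled out after the values were seen, was the one gene of the group whose 95% interval for OE-HRA1 against Col-0 under hypoxia lay above 0, at 7.35 and 7.22 in Col-0 and 7.60 and 7.78 in OE-HRA1 (SLR 0.40, adjusted p = 0.0436).

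**Figure D4:**
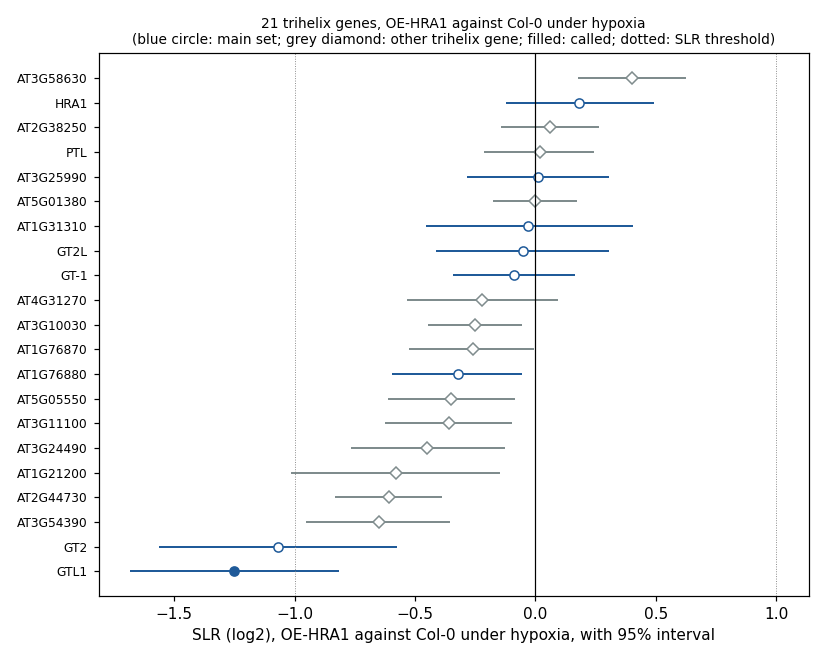
SLR of OE-HRA1 against Col-0 under hypoxia (x axis, log2, points with 95% intervals, 2 arrays per group) for the 8 trihelix genes of the main set (blue circles) and the 13 other trihelix genes (grey diamonds), ordered by SLR. GTL1, at −1.25, is the only filled (called) point, and 10 of the 13 other genes are below 0.

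Of 10 further genes listed, either ERF-VII genes or reported targets of trihelix factors, 3 could be assigned a probe set. All 3 were assigned through the study's own table of responsive genes. SDD1 encodes the subtilisin-like protease that limits stomatal number, and its promoter is a known target of repression by GTL1. SDD1 read 6.82 and 7.18 in Col-0 in air, 6.25 and 6.08 under hypoxia, 7.41 and 7.20 in OE-HRA1 in air and 6.16 and 6.26 under hypoxia. It was thus low on all hypoxia arrays, with an SLR of −0.83 in Col-0 (adjusted p = 0.00418, short of the SLR threshold) and −1.09 in OE-HRA1 (adjusted p = 0.00108, called). Under hypoxia, where GTL1 differed between the genotypes, SDD1 differed by 0.04 (95% interval −0.27 to 0.35). In air the SLR of OE-HRA1 over Col-0 was 0.30 for SDD1 (95% interval −0.01 to 0.61, adjusted p = 0.358) and −0.32 for GTL1 (adjusted p = 0.494). A link between SDD1 and GTL1 was not tested. TEM2, a repressor of flowering, rose in both genotypes, at 1.69 on the SLR scale for Col-0 (adjusted p = 3.31e-05) and 1.43 for OE-HRA1 (adjusted p = 9.53e-05), and the genotypes differed under hypoxia by 0.11 (95% interval −0.13 to 0.36). HRE1, an ERF-VII gene, read 10.81 and 10.50 in Col-0 under hypoxia and 7.22 and 7.77 in OE-HRA1 (SLR −3.16, adjusted p = 0.000219). In the study's yeast assay RAP2.12 was the only ERF-VII protein that interacted with HRA1, so HRE1 is not taken here as a partner.

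The called trihelix genes were compared, over the 8 arrays, with 909 named probe sets that were themselves called in at least one comparison. Likeness was measured by Pearson's r and is a description only, since the arrays fall into 4 groups that set most of it. On the OE-HRA1 arrays the HRA1 value includes the transgene, so its likeness is to that sum and not to the native gene. The pattern of HRA1 was most like that of HCHIB, a basic chitinase (r = 0.913), GPT2, a plastid glucose 6-phosphate translocator (r = 0.866), and AT3G22060 (r = 0.828). GT2L was matched more closely, by AT5G61570 (r = 0.995), RUL1 (r = 0.993) and AT3G28040 (r = 0.993), and AT1G31310 by AT3G09480 (r = 0.994), AT1G69680 (r = 0.978) and AT1G59660 (r = 0.977). For GTL1 the closest were YSL1, a metal chelate transporter (r = 0.936), HBI1, a growth-promoting helix-loop-helix factor (r = 0.907), and SAUR66 (AT1G29500, r = 0.891).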

How the data were processed

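Total RNA was measured on 8 Affymetrix ATH1 arrays. Per the methods of the study, the authors normalised the arrays by RMA, together with arrays of another genotype, and made present calls with MAS5. The authors deposited log2 values, which were used as given. Whether they come from that same run is not stated, and the present-call filter was not repeated. Of 22810 probe sets, 64 controls and 112 for organelle genes were left out and 22634 tested. Gene names came from the platform annotation (13415) or the study's table of responsive genes (573), and neighbouring genes from the RefSeq annotation of TAIR10.1. Columns with the authors' fold changes and p-values were not used.

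Comparisons used limma 3.58.1 in R 4.3.3 (lmFit and eBayes). Each group had its own mean, which left 4 residual degrees of freedom beside 4.15 from the prior, and p-values were adjusted by Benjamini-Hochberg across the 22634 probe sets. P-values measure the spread between 2 arrays per group, and the number of arrays limits the precision. The fit was tested on simulated data. The members and lists were chosen with earlier results of these data known. Named genes are the members, the 4 other trihelix genes with the largest |SLR|, the ERF-VII or target genes measured, and the 3 probe sets most like each called member. AT1G76870, AT3G10030, AT3G58630, AT5G05550, AT5G01380 and AT2G38250 were named after their values were seen. The OE-HRA1 arrays are paired across treatments by transgenic line (r = 0.15 between their deviations from group means), the Col-0 arrays of equal number correlated at 0.37, and numbers did not pair the genotypes (r = −0.19 to 0.01). Alternatives were a filter on dim probe sets, a variance trend, renormalisation, blocks, other thresholds and leaving out each array.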

Additional observations from a re-analysis of the deposited data

Results flagged for a closer look

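The response of HRA1 to hypoxia differed between the genotypes by an SLR of −5.75 (SE 0.19, adjusted p = 2.38e-05 by limma, n = 2 per group), since the transcript rose on both Col-0 hypoxia arrays and was lower on both OE-HRA1 hypoxia arrays than in air. The OE-HRA1 signal sums the native gene and the transgene. A negative value was fixed in advance by the constitutive transgene, so it is not a finding about the native gene.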

How the results depend on the processing

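No called value changed direction, whereas 29 recomputed values of 13 uncalled results near 0 changed sign. Of 697 recomputed member values, 673 kept their call, 20 lost it and 4 gained one. The calls of HRA1 in Col-0, in air and in the interaction held throughout. For hypoxia in Col-0 (3 calls) the count was 1 in the top 60% of probe sets by mean signal, which leaves out AT1G31310 and GT2L, 1 with treat, which tests against the SLR threshold itself, 2 with the transgenic line as a block, 2 with only the compared groups in the fit (AT1G31310 is lost in both), and 2 to 3 when an array was left out. Without line #1 under hypoxia the SLR of GTL1 for hypoxia in OE-HRA1 was −1.09. For hypoxia in OE-HRA1 (1 call) the count was 0 in the top 60% of probe sets by mean signal, 0 with treat and 2 with no minimum SLR (HRA1 joins). Between genotypes under hypoxia (1 call) it was 0 with quantile normalisation again (GTL1 at −1.20, adjusted p = 0.0105), 0 with only the compared groups in the fit (adjusted p = 0.0302), 0 with treat, 2 with an adjusted p under 0.05, 2 with the transgenic line as a block (GT2 joins in both), and 0 to 1 when an array was left out. In air, and for the interaction, 1 gene was called under every setting run, and the interaction could not be fitted with the compared groups only. A replicate block kept the counts at 3, 1, 1, 1 and 1.

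Counts over all probe sets moved more. They were 647 for hypoxia in Col-0 (169 with treat to 1995 with no minimum SLR), 695 in OE-HRA1 (141 to 2262), 212 between genotypes under hypoxia (20 to 478), 25 in air (1 with treat to 71 with an adjusted p under 0.05) and 38 for the interaction (5 to 61). Leaving out an array gave 71 to 250, 1 to 34 and 6 to 34 in the last 3. Probe sets near the lower quartile (AT1G31310, AT3G25990 and GT2L under hypoxia) are the least resolved.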
